A study of Homo sapiens with 4 samples.

Results

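The 10 genes described here are PRDX1 to PRDX6, TXN, TXN2, TXNIP and TXNRD2, which encode the peroxiredoxins and part of the thioredoxin system. They were chosen by gene symbol, and each had 1 row in a table of 19389 protein-coding genes. The RNA was that of SW620, an established line of human colorectal cancer cells, and the 4 libraries fall into 2 groups of 2. The H2O2-treated cells had been exposed to hydrogen peroxide for 2 days, and the control cells were SW620 labelled only as controls. The labels of the samples state 150 µM, whereas the design text gives 150 mM, and which unit holds cannot be settled here. The title of the series calls the treated cells senescent, a state of lasting growth arrest. No genotype or transgene is named for either group, and both groups share 1 cell line and 1 tissue label.

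Peroxiredoxins are thiol enzymes that reduce hydrogen peroxide by way of a reactive cysteine. In typical peroxiredoxins, though not in all, the oxidised enzyme is returned to its working form by a thioredoxin, a small protein with a redox-active cysteine pair. The thioredoxin is in turn reduced by a thioredoxin reductase at the expense of NADPH. The system is laid out by compartment: PRDX1, PRDX2, PRDX6 and TXN act mainly in the cytosol, PRDX3, PRDX5, TXN2 and TXNRD2 in mitochondria, and PRDX4 in the endoplasmic reticulum. PRDX5 is also found in peroxisomes and the cytosol, and is grouped here with the mitochondrial genes. TXNIP binds thioredoxin and restrains it, and also restrains glucose uptake.

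Levels are in FPKM, which counts fragments per kilobase of transcript and per unit of mapped fragments, so levels of different genes are compared per length. The table used here holds no counts, so read depth is unknown. The FPKM of a library summed to 574782 and 617668 in the H2O2-treated libraries, against 695837 and 660860 in the control libraries. Setting all libraries to an equal total (TPM) therefore moved the median log2 change of all genes tested by 0.17. Whether the paired libraries of a group are separate cultures is not stated, and p-values therefore measure only library spread, which may be technical. Of 10 markers of colon epithelial cells, 6 were expressed well enough to be tested. KRT8 and KRT18, keratins of simple epithelia, stood at 2037 to 2887 FPKM in H2O2-treated cells and 2221 to 3616 FPKM in controls. CDX1, a colon transcription factor gene, was listed at 0 in all 4 libraries, and KRT20, CDH17 and GPA33 stayed below 1 FPKM. The 10 markers summed to 5341 and 5232 FPKM in treated cells, against 6849 and 5913 FPKM in controls, a sum made up mostly of the 2 keratins. The other tested markers did not share 1 direction. VIL1, the gene of a brush border protein, had 67.7 and 73.0 FPKM in treated cells, against 88.4 and 104.7 FPKM in controls (limma adjusted p = 0.425), and CDH1, the gene of E-cadherin, had 23.0 and 16.6 FPKM, against 14.8 and 9.93 FPKM (adjusted p = 0.428). These were the only colon markers at an unadjusted p under 0.05.

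These were abundant mRNAs. The same 7 of the 10 genes ranked among the 700 highest of the 11318 genes tested in all 4 libraries, and PRDX1 ranked between 135 and 161. TXNIP ranked among the 700 highest only in treated library 2. Averaged over the H2O2-treated libraries the order of levels was PRDX1 (533 FPKM), PRDX2 (408 FPKM), TXN (367.5 FPKM), PRDX5 (285 FPKM), PRDX3 (211 FPKM), PRDX6 (177 FPKM), PRDX4 (139.7 FPKM), TXNIP (90.9 FPKM), TXN2 (70.1 FPKM) and TXNRD2 (15.5 FPKM). The controls gave the same order, with PRDX1 at 684 FPKM and TXNRD2 at 21.2 FPKM. Within each treated library the order was the same, except that TXNIP lay below TXN2 in treated library 1. Taken over both treated libraries, the ranges of neighbours overlapped except for PRDX5 above PRDX3, PRDX6 above PRDX4, and TXN2 above TXNRD2. In the controls no ranges of neighbours overlapped.

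**Figure D1:**
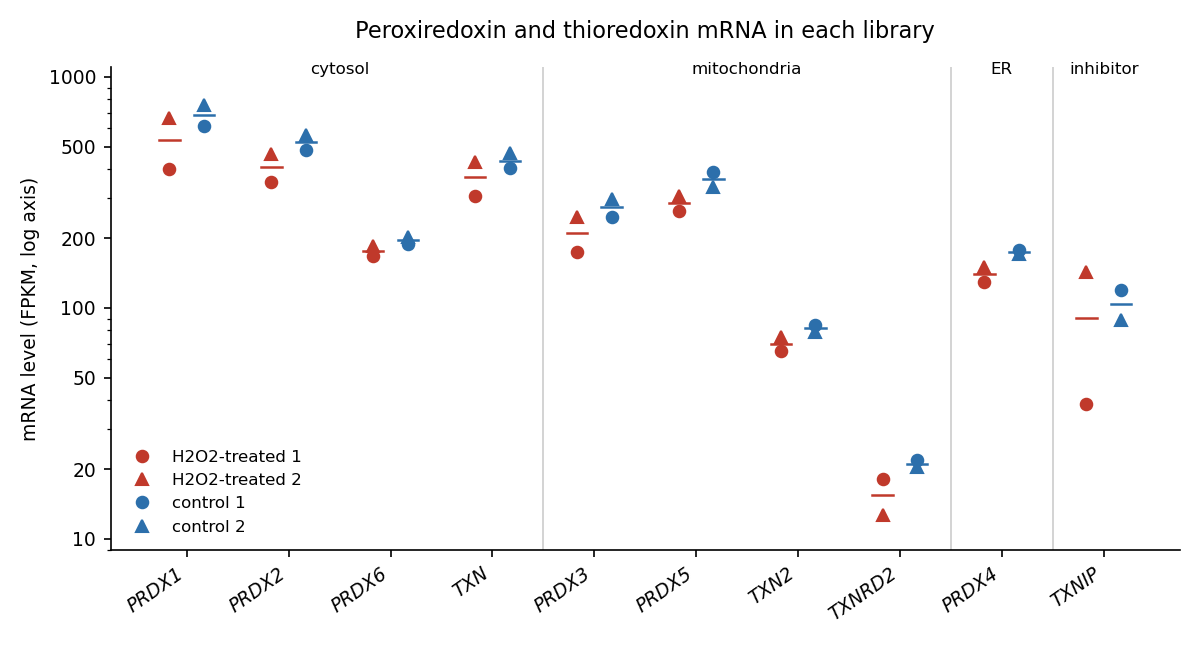
Level of each gene in FPKM on a log axis, with H2O2-treated libraries (red) left of control libraries (blue), circles for library 1, triangles for library 2 and a line at the group mean (n = 2). The 2 treated libraries lie below both controls for 7 genes, while for PRDX1, TXN and TXNIP the groups overlap.

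After peroxide all 10 genes had a negative log2 change, but none differed between the groups beyond the spread of the libraries. By limma, a linear model fitted on log2(FPKM + 1) over all genes tested, 0 of the 10 passed at an adjusted p under 0.05, and 0 had an unadjusted p under 0.05. Over all 11318 genes the model also called 0 higher and 0 lower (0.0% each), while an unadjusted p under 0.05 marked 6.22% as higher and 4.91% as lower. The members' median log2 change was -0.35, against -0.03 over all genes tested, of which 54.3% had a negative change. In 7 of the 10 genes both treated libraries lay below both controls, a pattern seen in 24.0% of all genes tested. In 0 of the 10 were both treated libraries above both controls, against 19.3% of all genes tested as deposited and 35.2% on the TPM scale. In 0 of the 10 were both treated libraries at least 1.2-fold below the control mean, against 9.77% of all genes tested.

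Abundant genes in general lay lower in the treated libraries on the deposited scale. Of 1960 genes with a mean of at least 50 FPKM, a limit set after the values were seen and met by 9 of the 10 members, 79.7% had a negative change (52.1% on the TPM scale), and 44.7% had both treated libraries below both controls. Their median log2 change was -0.20. On the TPM scale 2 of the 10 genes, PRDX4 and PRDX5, kept both treated libraries below both controls, against 8.59% of all genes tested and 18.6% of those at 50 FPKM or more. In bulk RNA, fewer cells of a type and less RNA per cell cannot be told apart.

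In the cytosol, PRDX1, the most abundant of the peroxiredoxins here, stood at 400.0 and 667 FPKM in H2O2-treated cells, against 612 and 756 FPKM in controls. Treated library 1 was the lowest of the 4, and treated library 2 lay between the controls. The group means were 533 ± 188.5 and 684 ± 102 FPKM (SD, n = 2 each), with a log2 change of -0.40 ± 0.28 (SE; adjusted p = 0.664). PRDX2, also known as an abundant protein of red blood cells, had 351 and 464 FPKM in treated cells, against 482 and 559 FPKM in controls. Its groups did not overlap, and treated library 2 lay closer to control library 1 than to treated library 1. The log2 change was -0.36 ± 0.21 (SE; adjusted p = 0.597). PRDX6, a peroxiredoxin with a single catalytic cysteine that also has phospholipase activity, had 168 and 186 FPKM in treated cells, against 190.0 and 202 FPKM in controls. That was the smallest difference among the peroxiredoxins, a log2 change of -0.15 ± 0.17 (SE; adjusted p = 0.799). The thioredoxin gene TXN had 305 and 430.3 FPKM in treated cells, against 403 and 466 FPKM in controls. As with PRDX1, treated library 2 lay between the controls, and the log2 change was -0.26 ± 0.23 (SE; adjusted p = 0.730).

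In mitochondria, PRDX3, a peroxiredoxin of the mitochondrial matrix, stood at 175 and 247.4 FPKM in H2O2-treated cells, against 248.1 and 298 FPKM in controls. Treated library 2 and control library 1 differed by less than 1 FPKM, so the groups were apart only by treated library 1. Its log2 change was -0.39 ± 0.23 (SE; adjusted p = 0.598). PRDX5, which reduces peroxides and peroxynitrite, had 263 and 306 FPKM in treated cells, against 389 and 335 FPKM in controls. Both treated libraries lay below both controls, with a log2 change of -0.34 ± 0.19 (SE; adjusted p = 0.574). TXN2, the mitochondrial thioredoxin, had 65.1 and 75.2 FPKM in treated cells, against 84.2 and 79.1 FPKM in controls. The groups did not overlap, and the log2 change was -0.22 ± 0.17 (SE; adjusted p = 0.686). TXNRD2, the mitochondrial thioredoxin reductase, had 18.2 and 12.7 FPKM in treated cells, against 21.9 and 20.6 FPKM in controls. Alone among the 10 genes it was lower in treated library 2 than in treated library 1. Its log2 change of -0.45 ± 0.21 had the smallest adjusted p of the members, 0.500.

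In the endoplasmic reticulum, PRDX4, which passes oxidising equivalents to protein disulfide isomerases during protein folding, stood at 129 and 150.1 FPKM in H2O2-treated cells, against 178 and 172 FPKM in controls. Its 2 controls differed 1.03-fold, both treated libraries were lower, and the log2 change was -0.33 ± 0.17 (SE; adjusted p = 0.556). PRDX3 and PRDX4 each hold an E-box (CACGTG, the same on both strands), the letters bound by MYC, MAX and related factors, in the 250 bases before a RefSeq start (GRCh38.p14). The windows are shown because these 2 genes alone carry that motif among the members with a window. All 10 members had a negative change, those without a matched window included, and a link of the motif to the level was not tested. The PRDX3 window is chr10:119178813-119179062, minus strand, with the match at bases -157 to -152 from the start. The PRDX4 window is chrX:23667243-23667492, plus strand, inside the GENCODE release 29 gene that begins at 23664262, with the match at bases -83 to -78. Capitals mark the E-box:
PRDX3: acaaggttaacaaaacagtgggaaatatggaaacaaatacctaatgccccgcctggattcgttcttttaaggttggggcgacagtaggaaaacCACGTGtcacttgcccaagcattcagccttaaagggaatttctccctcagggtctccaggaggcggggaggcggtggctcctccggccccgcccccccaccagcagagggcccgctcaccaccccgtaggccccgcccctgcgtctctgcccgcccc
PRDX4: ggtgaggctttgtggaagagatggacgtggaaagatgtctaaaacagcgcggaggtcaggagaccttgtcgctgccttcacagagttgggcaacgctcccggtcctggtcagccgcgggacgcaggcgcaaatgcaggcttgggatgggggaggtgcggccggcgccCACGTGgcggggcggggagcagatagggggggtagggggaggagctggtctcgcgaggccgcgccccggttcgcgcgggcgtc
An E-box stands in 6.34% of 35116 RefSeq windows of the same length. RefSeq windows were matched for 7 of the 10 members, 11 windows in all, and were not matched for PRDX1, PRDX6 and TXN2. The core of the antioxidant response element (TGACNNNGC, both strands), the site of NRF2, was found in 0 of the 11 windows, against 10.9% of all windows. With so few windows, some of them of the same gene and each of 250 bases, this does not show that the members lack such sites. A match describes letters, and says nothing of binding.

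TXNIP was the member with the widest spread. It stood at 38.2 and 143.6 FPKM in H2O2-treated cells, against 120.0 and 88.8 FPKM in controls. Treated library 1 was the lowest of the 4 libraries and treated library 2 the highest, 3.76-fold apart, while the controls differed 1.35-fold. The group means were 90.9 ± 74.5 and 104 ± 22.1 FPKM (SD, n = 2 each), and the log2 change of -0.47 ± 0.57 (SE; adjusted p = 0.810) was the largest in size of the 10 and the least certain. Without treated library 1 it was 0.47, and without treated library 2 it was -1.41, with an adjusted p of 0.0655. TXNIP ranked 2468th of 11318 genes in treated library 1 and 567th in treated library 2, so the gap also stood in ranks, which no rescaling of a library alters. Its promoter is known for a carbohydrate response element, where MondoA and MLX bind. Of its 2 RefSeq starts, the 250 bases before the outer one (GRCh38.p14, chr1:145996580-145996829, minus strand) are shown for that element, searched on both strands as CACGNG followed after 5 bases by a second CACGNG, and found at bases -88 to -72, in capitals:
TXNIP: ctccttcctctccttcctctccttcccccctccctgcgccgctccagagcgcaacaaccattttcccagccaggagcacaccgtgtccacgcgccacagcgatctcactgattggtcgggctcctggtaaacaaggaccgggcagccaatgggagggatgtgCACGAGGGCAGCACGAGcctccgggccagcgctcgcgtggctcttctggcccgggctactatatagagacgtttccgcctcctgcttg
That pattern was found in 16 of 35116 windows, or 0.0456%, and in none of the other 10 windows of the members. A form of this motif with T at both free positions would also hold E-boxes, and the TXNIP window holds no E-box. The window also holds the CCAAT box (CCAAT, both strands) in 2 places, a motif found in 32.0% of all windows.

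The 2 treated libraries differed among themselves in a common direction. In 9 of the 10 genes treated library 1 was the lower, against 49.2% of all genes tested, with TXNRD2 the exception. Control library 1 was also below control library 2 for PRDX1, PRDX2, PRDX3, PRDX6 and TXN, and above it for the other members. Against the control mean, the log2 difference of PRDX1 was -0.77 in treated library 1 and -0.04 in treated library 2. For TXN these values were -0.51 and -0.02 (1.04% below the control mean), and for PRDX3 -0.64 and -0.14. PRDX5 and PRDX4 lay closer together, at -0.46 and -0.24 for PRDX5 and at -0.44 and -0.22 for PRDX4. With treated library 2 left out, 7 of the 10 genes (PRDX1 to PRDX5, TXN and TXNIP) were lower at an unadjusted p under 0.05, where 11.4% of all genes were, and none passed the adjusted test. With treated library 1 left out only TXNRD2 was, where 8.33% of all genes were. With control library 1 or 2 left out 0 of the 10 were, where 2.02% and 0.875% of all genes were. With the library number as a block TXNRD2 was, where 9.8% of all genes were. In these fits the lone library is assumed to vary like the other group.

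**Figure D2:**
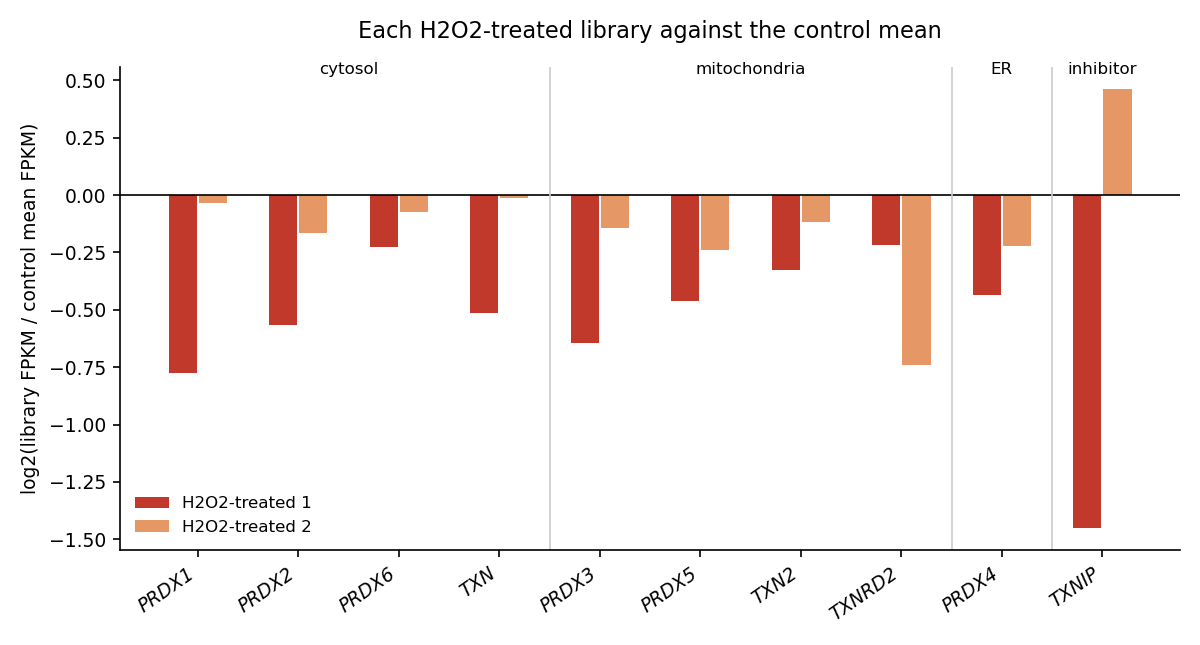
Log2 ratio of the FPKM in each H2O2-treated library to the mean of the 2 controls, by gene and compartment, with bars from 0. Treated library 1 lies further below 0 than treated library 2 for all genes but TXNRD2, and TXNIP is on both sides of 0 (-1.45 and 0.46).

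The size of the differences depended on how the libraries were put on 1 scale. The members' median log2 change was -0.35 as deposited, -0.27 at an equal upper quartile, -0.17 on the TPM scale and -0.13 after quantile normalization, while the median of all genes was -0.03, 0.04, 0.14 and -0.02 under these scalings. PRDX6 had a change of -0.15 as deposited, 0.04 on the TPM scale and 0.07 after quantile normalization. The other 9 genes kept a negative change under the 4 scalings. The share of all genes with one was 54.3% as deposited, 42.8% at an equal upper quartile, 29.2% on the TPM scale and 53.9% after quantile normalization. Of genes with a mean of at least 50 FPKM, 79.7% had one as deposited, 52.1% on the TPM scale and 54.3% after quantile normalization. Their median log2 change was -0.20 as deposited, -0.12 at an equal upper quartile, -0.01 on the TPM scale and -0.02 after quantile normalization. PRDX1 was at -0.40, -0.32, -0.21 and -0.11, and TXN at -0.26, -0.18, -0.07 and -0.02, in the same order of scalings. TXNRD2 moved less, at -0.45, -0.37, -0.28 and -0.43.

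**Figure D3:**
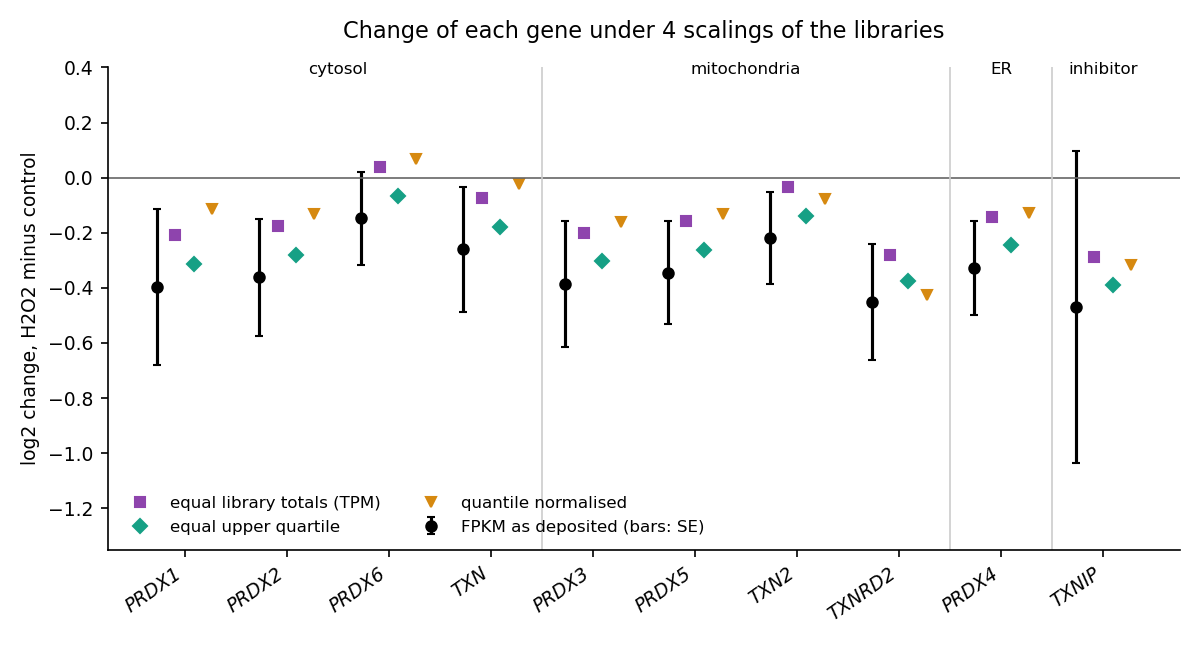
Log2 change (H2O2 minus control, 2 libraries each) of each gene under 4 scalings, with the limma SE drawn on the deposited scale. PRDX6 crosses 0 under 2 scalings, and the other 9 genes stay below 0 under all 4.

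The division of the mRNA between compartments, which a single scaling factor per library leaves as it is, was close in the 2 groups. Of the summed FPKM of the 9 genes other than TXNIP, the cytosolic genes PRDX1, PRDX2, PRDX6 and TXN made up 65.3% and 68.8% in H2O2-treated cells, against 64.7% and 68.7% in controls. The mitochondrial genes made up 27.8% and 25.3% in treated cells, against 28.5% and 25.4% in controls, and PRDX4 made up 6.90% and 5.91%, against 6.82% and 5.96%. The cytosolic share thus differed by 3.51 percentage points between the treated libraries and by 3.99 points between the controls. Between treated and control libraries of the same number it differed by 0.613 and 0.132 points. The labels do not say that a number marks a shared culture, so these need not be pairs. The difference between group means was 0.372 points (exact permutation test, two-sided, p = 0.667), and the smallest p that 2 against 2 libraries allow is 0.333.

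**Figure D4:**
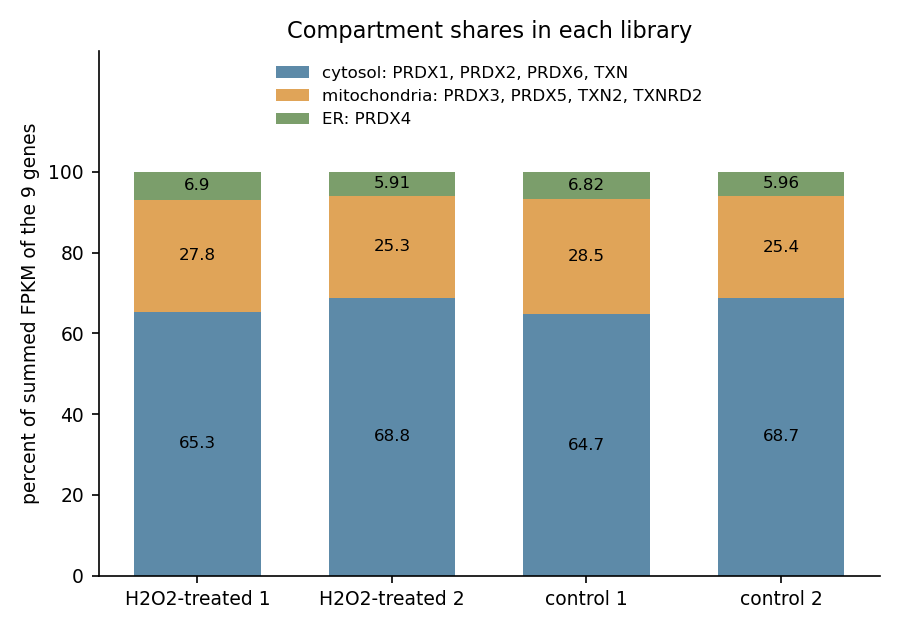
Percent of the summed FPKM of 9 genes held by the genes of each compartment, 1 bar for each library. The cytosolic share is 65.3% and 68.8% in treated libraries 1 and 2, and 64.7% and 68.7% in control libraries 1 and 2.

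As summed levels, the cytosolic genes had 1224 and 1747 FPKM in treated cells, against 1687 and 1983 FPKM in controls, and the groups overlapped. The mitochondrial genes had 521 and 641.5 FPKM, against 743 and 732 FPKM, and did not overlap (log2 ratio -0.34). That was also so for PRDX4, whose values are given above. Each of these 2 reached the smallest p allowed (exact permutation test, p = 0.333). Ratios within a library showed no difference past their spread. PRDX3 over PRDX1, the mitochondrial against the cytosolic enzyme, was 0.436 and 0.371 in treated cells, against 0.406 and 0.394 in controls. TXN2 over TXN was 0.214 and 0.175, against 0.209 and 0.169. TXNIP over TXN was 0.126 and 0.334, against 0.298 and 0.190. TXNRD2 over TXN2, the reductase over its substrate, was 0.281 and 0.169 in treated cells, against 0.260 in both controls. In all 5 ratios computed, PRDX4 over PRDX1 included, the groups overlapped.

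Genes around this system were described from 8 lists of 80 genes, of which 76 were measured and 73 tested. The glutaredoxins are not analysed here. By limma 0 of the 73 passed over all genes, an unadjusted p under 0.05 was reached by 4 with a positive and 1 with a negative change, where 6.22% and 4.91% of all genes tested reached it, and the median log2 change was -0.06, against -0.03 over all genes. Signs in the lists are those of the deposited scale, on which 54.3% of all genes tested had a negative change. On the TPM scale the median of the 73 was 0.12, against 0.14 over all genes tested. Among reductases and repair enzymes, 6 of 7 genes had a positive change (median 0.16, or 0.33 on the TPM scale) and 0 passed either test. TXNRD1, the cytosolic thioredoxin reductase, had 52.7 and 59.9 FPKM in treated cells, against 58.5 and 53.4 FPKM in controls, and its groups overlapped fully (log2 change 0.01 ± 0.17, SE; adjusted p = 0.995). SRXN1, sulfiredoxin, which repairs over-oxidised peroxiredoxins, had 51.5 and 32.4 FPKM, against 37.2 and 32.4 FPKM, with treated library 1 the highest (0.23 ± 0.25; adjusted p = 0.785). SESN3, a sestrin, had 17.2 and 22.7 FPKM, against 12.5 and 16.7 FPKM (adjusted p = 0.549).

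Of 16 thioredoxin-like proteins tested 13 had a negative change, as had 54.3% of all genes tested (median -0.13, but 0.05 on the TPM scale). The smallest p was that of TXNDC17, at 59.5 and 78.7 FPKM in treated cells, against 94.6 and 91.7 FPKM in controls (adjusted p = 0.469). Among 10 clients of thioredoxin 8 had a negative change (median -0.19, or -0.01 on the TPM scale). The 1 with an unadjusted p under 0.05 was APEX1, a DNA repair enzyme and redox factor, with 174 and 189.6 FPKM in treated cells, against 264 and 242 FPKM in controls (log2 change -0.48 ± 0.17, SE; adjusted p = 0.410). Among 12 genes of thiol oxidation in the endoplasmic reticulum 8 had a negative change (median -0.06, but 0.13 on the TPM scale). There GPX8, a peroxidase of that compartment, had 7.64 and 6.46 FPKM in treated cells, against 4.59 and 2.44 FPKM in controls (0.87 ± 0.27; adjusted p = 0.352). Its log2 change was 0.52 without control library 2 and 1.22 without control library 1.

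The alpha-arrestin and MondoA list, to which TXNIP belongs by sequence and by regulation, held 9 genes. Of these, 3 were higher at an unadjusted p under 0.05, as were 6.22% of all genes tested. The list median was 0.18, or 0.36 on the TPM scale. The glucose transporter gene SLC2A3 had 43.2 and 46.0 FPKM in treated cells, against 26.0 and 16.8 FPKM in controls, a log2 change of 1.06 ± 0.23 (SE; adjusted p = 0.276). SLC2A1, the other glucose transporter listed, had 359 and 270.4 FPKM, against 224 and 185 FPKM (0.61 ± 0.21; adjusted p = 0.402). ARRDC3 had 6.08 and 8.74 FPKM, against 4.32 and 4.81 FPKM (0.58 ± 0.21; adjusted p = 0.419), and its log2 change was 0.35 without treated library 2. Of 8 mitochondrial NADPH genes and partners 5 had a positive change (median 0.04, or 0.22 on the TPM scale). The smallest p there was that of ME3, a mitochondrial malic enzyme, at 23.7 and 12.2 FPKM, against 13.1 and 4.47 FPKM (adjusted p = 0.502). The groups of ME3 overlapped, and its log2 change of 1.04 was 0.36 without control library 2, 0.59 without treated library 1 and 1.72 without control library 1. Of 11 genes of NRF2 control 5 had a positive change (median -0.02, but 0.16 on the TPM scale). The smallest p there was that of BACH1, a repressor of NRF2 targets, at 11.2 and 8.29 FPKM, against 6.84 and 6.93 FPKM (adjusted p = 0.488).

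Profiles over the 4 libraries were compared by the root mean square distance of centred log2(FPKM + 1). The genes nearest to TXNIP were PLAC8 (distance 0.16), ARRDC4 (0.19) and TMEM256 (0.22), and no gene lay within 0.1. ARRDC4, an alpha-arrestin gene, had 1.25 and 5.05 FPKM in H2O2-treated cells, against 6.05 and 3.95 FPKM in controls. The genes nearest to PRDX1 were UBASH3B, TMEM14A and NDUFC2 (0.02 each), and 156 genes lay within 0.1 of PRDX1. With 4 libraries such nearness is a description only.

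Genes that overlap or resemble the members limit some values. The deposited locus equalled the GENCODE release 29 gene for 8 of the 10 members. That of PRDX1 ran past the gene (chromosome 1, 45511036 to 45523047, minus strand) to 45500053, and that of TXNRD2 (chromosome 22, 19875517 to 19941992, minus strand) to 20016808. MMACHC, opposite to PRDX1, had 5.27 to 6.07 FPKM in treated cells and 5.76 to 6.38 FPKM in controls. The library kit keeps strand, but the strand setting of the quantification is not given in the sources used here. GENCODE names 7 pseudogenes of TXN, 4 each of PRDX2 and PRDX3, and 1 each of PRDX1 and PRDX4, with which reads can be shared.

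Markers of other cell types were low, and none passed the adjusted test. Of 6 leukocyte markers 2 were tested. CD68 among them had 7.66 and 17.7 FPKM in treated cells, against 1.92 and 1.83 FPKM in controls (limma adjusted p = 0.202). The summed level of the 6 was 12.8 and 37.1 FPKM in treated cells, against 5.28 and 7.02 FPKM in controls. PTPRC reached 0.00822 FPKM at most. The 7 fibroblast markers, 3 of them tested, had sums of 4.70 and 12.0 FPKM, against 4.72 and 9.38 FPKM. COL1A2, COL3A1 and PDGFRA were listed at 0 in both controls. THY1 passed the filter on low values only through the treated libraries, with 1.37 and 1.93 FPKM, against 0.361 and 0.159 FPKM in controls, and its test is not used. The 6 endothelial markers, 2 of them tested, had sums of 13.7 and 15.7 FPKM, against 8.94 and 6.46 FPKM, and KDR was at or below 0.0118 FPKM. TIE1 also passed the filter only through the treated libraries, with 2.21 and 1.67 FPKM, against 0.0941 and 0.0991 FPKM in controls. EGFL7 made up most of the endothelial sums, with a log2 change of 0.67 ± 0.21 (SE; limma adjusted p = 0.366). Of 6 markers of erythroid cells, which are rich in PRDX2 protein, 1 was tested, with sums of 4.03 and 10.6 FPKM, against 3.51 and 6.86 FPKM. HBB and ALAS2 were listed at 0 in all 4 libraries. Their part in the members' values was not tested.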

How the data were processed

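Libraries were made from total RNA with a strand-keeping kit, as the labels' protocols state. STAR 2.5, Cufflinks 2.2.1 and hg38 are listed, without their roles, per the submitters' processing notes. Annotation, strand setting and filters were not given in the sources used here. Values deposited by the authors in the table used here are FPKM, 1 per gene and library. That table holds no counts, so read depth and its counting error are unknown. Cufflinks values are estimates, and an exact 0 can be a failed one.

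FPKM were transformed as log2(FPKM + 1), which slightly understates changes of low genes. Testing covered the 11318 of 19389 genes that reached 1 FPKM in 2 or more of the 4 libraries. All 10 members passed this filter in both groups. Where a symbol had 2 rows, the one of higher mean was used. H2O2-treated libraries were compared with controls by limma 3.58.1 (R 4.3.3), with group as the only term, a variance trend, 2 residual and 6.28 total degrees of freedom, and Benjamini-Hochberg adjustment over all genes at 0.05. The script was tested on simulated data. Sums, shares and ratios were compared by exact permutation over the 6 possible assignments of the libraries. The members and lists were chosen with earlier results of these data known. The named genes are the 10 members, TXNRD1 and SRXN1, up to 4 genes of each list at an unadjusted p under 0.05 or otherwise the 1 with the smallest p, and the 3 nearest profiles of 2 members. Genes named beyond these, markers and overlapping genes included, were chosen after their values were seen. Alternatives were other pseudocounts, filters and scalings, no variance trend, a replicate block and each library left out. Promoter sequences are from RefSeq (GRCh38.p14), and gene positions from GENCODE release 29. Protein sequences are not used here. Figures were drawn in Python 3.11.15.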

Additional observations from a re-analysis of the deposited data

How the results depend on the processing

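None of the 10 members passed the adjusted test under any of the 13 alternatives, and with 2 libraries a group differences of this size could not be told from the spread. The direction of PRDX6 turned on the TPM scale (0.038) and after quantile normalization (0.067), and the change of TXNIP ranged from -1.41 to 0.47 with 1 library left out. Members lower at an unadjusted p under 0.05 numbered 0 in the main model, 1 (TXNRD2) under the replicate block, and 0 to 7 with 1 library left out, and those with a negative change 9 to 10. Libraries of the same number deviated in common, with r = 0.45 over the genes tested, but the labels do not say that a number marks a shared culture. With the number as a block, 397 of all genes were called higher and 190 lower after adjustment, and 1108 and 1109 at an unadjusted p under 0.05, against 704 and 556 without it. Among the surrounding genes the block called 4 higher after adjustment, GPX8 (adjusted p = 0.0251), ME3 (0.00759) and SLC2A3 (0.00797) among the named ones, and 10 higher and 4 lower unadjusted. Other adjusted counts over all genes were 5 higher at a mean of at least 5 FPKM, 32 on the TPM scale, and 8 to 127 higher and 0 to 13 lower with 1 library left out. Unadjusted counts of higher genes were 339 at a mean of at least 5 FPKM, 1169 with no filter, 1213 on the TPM scale and 321 to 1067 with 1 library left out. Those of lower genes were 131 on the TPM scale, 293 at an equal upper quartile and 99 to 1291 with 1 library left out. Surrounding genes higher unadjusted numbered 2 with no filter, 8 on the TPM scale and 1 to 12 with 1 library left out. Lower ones numbered 2 with no filter, 0 on the TPM scale, at an equal upper quartile and after quantile normalization, and 0 to 8 with 1 library left out.

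With 1 library left out, the change of TXNRD1 ranged from -0.083 to 0.10 that of SRXN1 from -0.10 to 0.56, that of GPX8 from 0.52 to 1.22, that of ME3 from 0.36 to 1.72 and that of ARRDC3 from 0.35 to 0.81. The log2 ratio of the summed mitochondrial genes was -0.16 on the TPM scale and ranged from -0.50 to -0.20 with 1 library left out. That of PRDX4 was -0.14 and ranged from -0.44 to -0.22, and that of the 9 genes together ranged from -0.55 to -0.11. The differences in share, in percentage points, ranged from -1.62 to 2.37 for the cytosol, -1.95 to 1.18 for mitochondria and -0.48 to 0.51 for PRDX4, so their signs turned. The log2 differences of ratios also turned sign, from -0.11 to 0.13 for PRDX3 over PRDX1, -0.11 to 0.19 for TXN2 over TXN, -0.92 to 0.49 for TXNIP over TXN, -0.19 to 0.33 for PRDX4 over PRDX1 and -0.62 to 0.11 for TXNRD2 over TXN2. The cause was not tested.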
